A study of Nannochloropsis oceanica with 15 samples.

Results

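The genes described here are uncharacterised genes of Nannochloropsis oceanica whose transcripts were highest 12 h into phosphate deprivation. They are 115 of the 10434 rows of the deposited table, and 115 of its 4711 rows that carry no Swiss-Prot, KEGG or KOG description. A row was taken if its mean at 12 h was at least 5 FPKM and at least 3 times the mean of each other time, and if its lowest 12 h library lay above every library of the other times. FPKM, computed by the authors, is the fragment count scaled to transcript length and sequencing depth, so it allows levels of different genes to be compared. Of the 4711 rows, 3084 reached the level at 12 h, 123 of these also met the ratio, and 115 also had no overlap between libraries. The genes were thus chosen by their measured level at 12 h and its ratio to every other time, and these values are given below as a description, with no test.

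RNA was sequenced from strain IMET1, a unicellular marine alga, at 0, 6, 12, 24 and 48 h, with 3 libraries at each time, called replicates a, b and c. Cells grown under continuous light in modified f/2 medium were washed in seawater and transferred to f/2 medium lacking phosphate, and all 15 libraries, those of 0 h included, are labelled as phosphate deprivation. The culture protocol also mentions complete medium, but every library analysed here is labelled as deprived, so effects of the missing phosphate, of the transfer and of elapsed time cannot be told apart. Nothing states that the libraries of a time came from separate cultures, so the p-values measure only the spread between these libraries, which may be technical. Libraries held 16649421 to 26349336 counts.

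Phosphate is a building block of nucleic acids, phospholipids and ATP, and microalgae deprived of it are known to take up and recycle phosphate more strongly, to replace phospholipids by lipids without phosphorus and to slow their growth. Many algal genes have no described relative in curated databases. For such genes the only hints are a conserved domain, given here by the Pfam text, and the closest protein in the NR collection, given by the NR text. Both are hints from homology and do not show what a protein does in this alga.

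Most of these genes were lowest at 0 h, high at 12 h and intermediate afterwards. The median over the 115 genes of the mean level was 2.79 FPKM at 0 h, 5.43 at 6 h, 33.1 at 12 h, 5.84 at 24 h and 8.31 at 48 h. At 12 h the means ran from 5.59 FPKM (newGene_56) to 1494 FPKM (NO29G01450), with 104 genes at 10 FPKM or more and 20 at 100 FPKM or more. The lowest of the 5 means was that of 0 h in 105 genes, that of 6 h in 6 and that of 24 h in 4. The second highest mean was that of 48 h in 92 genes, that of 24 h in 12 and that of 6 h in 11.

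**Figure D1:**
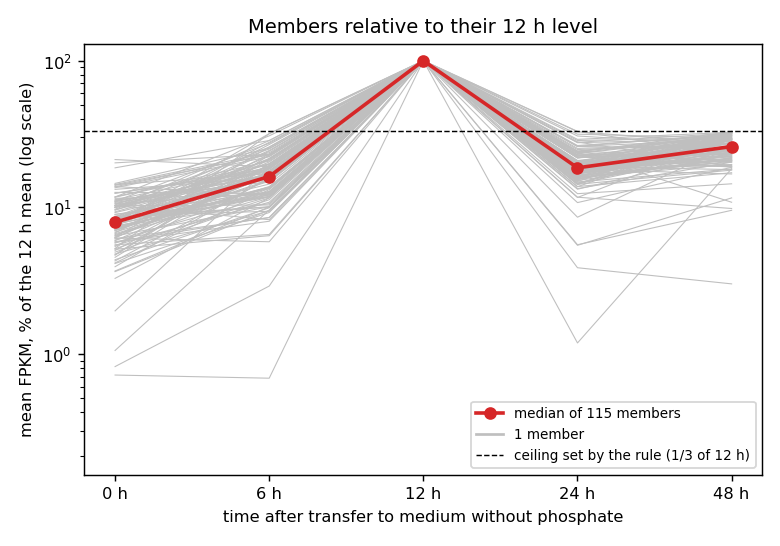
Mean FPKM of each of the 115 genes at 0, 6, 12, 24 and 48 h, as a percentage of its own 12 h mean (log axis). Grey lines are single genes (members), the red line is their median and the dashed line is the ceiling that the rule sets for the other times; the median is lowest at 0 h and second highest at 48 h.

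The 12 h level was a median of 12.7 times the 0 h level (4.72 to 139 times), and 82 genes stood at 10 times or more. Against the next highest time the ratio had a median of 3.66 and ranged from 3.03 to 25.8. It was at least 5 in 12 genes and at least 10 only in NO07G04410. The replicates at 12 h lay close together for most genes, with a median coefficient of variation of 9.25% (1.29% to 83.1%). In 106 genes the lowest 12 h library was at least 2 times the highest library of any other time.

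Just inside the ratio of 3 lay NO19G00270, a gene with a pleckstrin homology domain, with 49.8 FPKM at 12 h and 16.5 FPKM at 48 h (ratio 3.03). Next to it lay newGene_56 (3.04) and NO06G04660 (3.04). Just outside lay NO16G01430 (2.99), NO02G00340 (2.97) and NO01G01520 (2.96). The count of genes is thus tied to the threshold, with 258 passing at a ratio of 2 and 43 at a ratio of 4. A further 8 rows met level and ratio but had overlapping libraries. Among them was NO11G00770, with a 12 h mean of 48.4 FPKM but a lowest 12 h library of 2.94 FPKM.

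The same rule found far fewer genes at other times. Applied to the uncharacterised rows it took 2.44% at 12 h, against 8 genes at 0 h, 2 at 6 h, 0 at 24 h and 6 at 48 h. Among the 5723 annotated rows it took 59 at 12 h, or 1.03%. The highest of these was NO12G00550, described as GDP-mannose 4,6 dehydratase 2, an enzyme of GDP-fucose synthesis, with 702 FPKM at 12 h and 56.4 FPKM at 0 h. It was followed by NO03G02610 (actin, 269 FPKM at 12 h), NO13G00530 (Pfam text trypsin, 144), NO17G02590 (sulfate transporter 3.5, 141), NO26G01440 (a pentatricopeptide repeat protein, 139) and NO07G04560 (coatomer epsilon subunit, 119). These 6 had been set as examples by their level alone.

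The 115 genes together made up 0.170% to 0.185% of all counts in the 0 h libraries, 0.425% to 0.480% at 6 h, 2.39% to 2.75% at 12 h, 0.427% to 0.591% at 24 h and 0.401% to 0.749% at 48 h. Their summed level was 877, 874 and 806 FPKM in replicates a, b and c at 0 h, and 2087, 2123 and 1952 FPKM at 6 h. It was 10127, 11606 and 11262 FPKM at 12 h. At 24 h it was 2038, 1988 and 2485 FPKM, and at 48 h 3370, 1877 and 2769 FPKM. The 48 h libraries were thus the least alike, with replicate b below all 3 libraries of 6 h and replicate a above all libraries of 6 and 24 h.

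**Figure D2:**
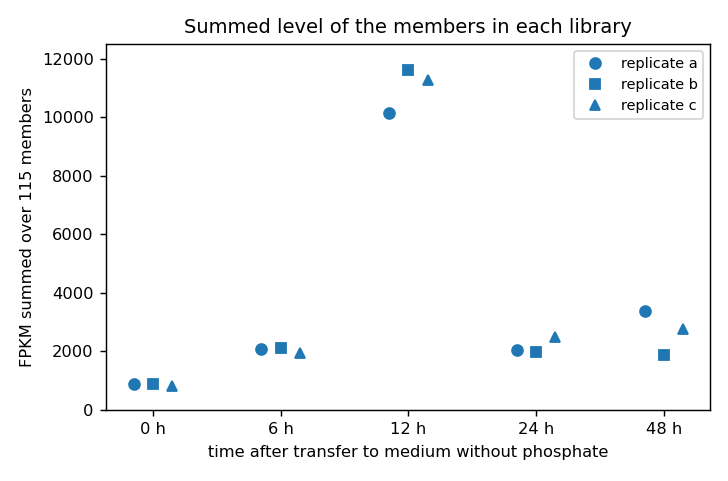
Summed FPKM of the 115 genes in each of the 15 libraries, by time, with one marker per replicate. The 12 h libraries lie between 10127 and 11606 FPKM, and 48 h replicate b (1877 FPKM) lies below 48 h replicates a and c.

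Replicate b was the lowest 48 h library in 108 of the 115 genes. It was also lowest in 51 of the 59 annotated genes that passed the same rule, but in only 27.46% of 7945 other rows with a mean of at least 5 FPKM over all libraries. The cause was not tested. Without replicate b of 48 h the rule took 85 genes, all among the 115, and without replicate a of 48 h it took 142, 114 of them among the 115.

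The most abundant of these genes was NO29G01450, with a Pfam PT repeat, a short proline and threonine repeat. Its NR text is a hypothetical protein of Helianthus annuus. It had 26.8, 80.8 and 68.9 FPKM at 0 h, then 255, 259 and 203 at 6 h, then 1515, 1540 and 1428 at 12 h, then 341, 118 and 359 at 24 h, and lastly 466, 107 and 184 at 48 h. Its libraries were alike at 12 h and spread widely at 24 and 48 h, where replicate b was the lowest. NO01G05160, which has neither Pfam nor NR text, had 85.2, 92.0 and 79.5 FPKM at 0 h, then 319, 346 and 383 at 6 h, then 1105, 1164 and 1023 at 12 h, then 193, 199 and 194 at 24 h, and lastly 342, 216 and 303 at 48 h. Its 6 h libraries lay above all its 24 h libraries. NO27G01730, known only as a hypothetical protein of the related alga Nannochloropsis gaditana, stood apart by its high start. It had 199, 185 and 166 FPKM at 0 h, then 201, 197 and 230 at 6 h, then 747, 1098 and 890 at 12 h, then 144, 163 and 159 at 24 h, and lastly 356, 201 and 313 at 48 h. Its 24 h libraries all lay below its 0 h libraries, a difference that did not pass the test described below (edgeR adjusted p = 0.19).

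**Figure D3:**
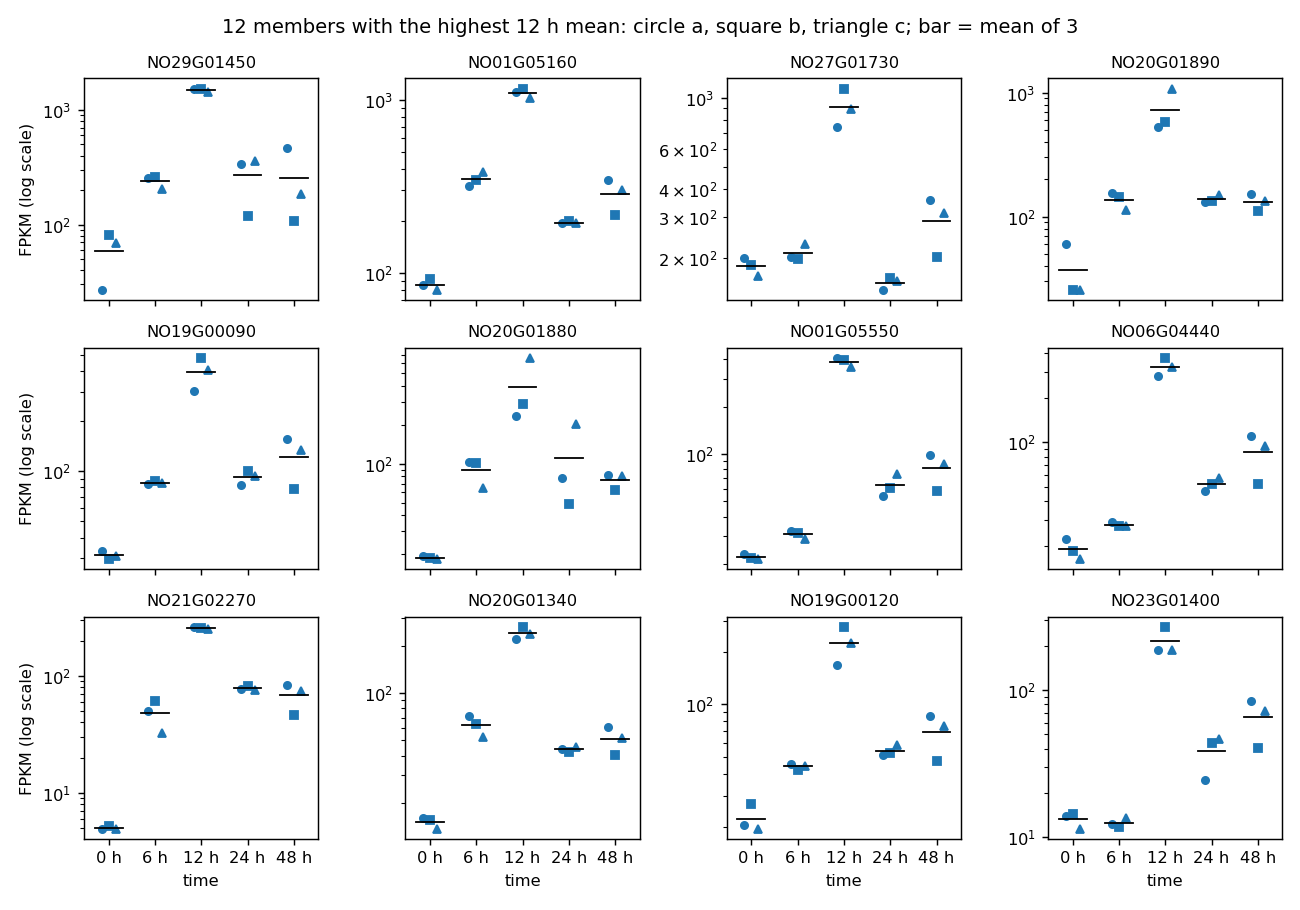
FPKM in every library (log axis) against time for the 12 genes with the highest 12 h mean. Circles, squares and triangles are replicates a, b and c and bars are means of 3; NO27G01730 starts near 183 FPKM while NO21G02270 starts near 5 FPKM.

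NO20G01880 and NO20G01890 carry consecutive IDs and the same NR text, a hypothetical protein of N. gaditana. NO20G01880 had 236, 287 and 659 FPKM at 12 h and 19.3, 18.7 and 18.2 FPKM at 0 h. NO20G01890 had 526, 580 and 1081 FPKM at 12 h and 59.8, 25.7 and 25.5 FPKM at 0 h. In both genes 12 h replicate c was far above a and b. If the genes are near-identical copies, reads could have been split between them, so their single levels are uncertain. The same holds for NO19G00100 with NO19G00120, NO18G00050 with NO18G00190, and newGene_55 with newGene_56, which also share an NR text.

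The next genes in level were NO19G00090 (396 FPKM at 12 h), NO01G05550 (386), NO06G04440 (325), NO21G02270 (256), NO20G01340 (242), NO19G00120 (223) and NO23G01400 (215). NO01G05550, with neither text, had 408, 393 and 356 FPKM at 12 h, against 23.3, 22.0 and 21.5 FPKM at 0 h. NO21G02270, a hypothetical protein shared with N. gaditana, had 4.93, 5.22 and 4.94 FPKM at 0 h, then 50.1, 60.7 and 32.5 at 6 h, then 261, 255 and 251 at 12 h, then 76.6, 82.1 and 76.4 at 24 h, and lastly 82.8, 46.7 and 74.5 at 48 h. Each later library lay above all its 0 h libraries.

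NO07G04410, another hypothetical protein shared with N. gaditana, was the gene most restricted to 12 h by the ratio of means. It had 12.3, 16.9 and 13.4 FPKM at 12 h, from 730, 826 and 647 counts. Its libraries of 0 h held 3, 9 and 8 counts, those of 6 h 8, 4 and 4, those of 24 h 36, 36 and 20, and those of 48 h 40, 24 and 3. Its levels outside 12 h thus rest on few fragments. The next largest ratios to another time were those of newGene_164 (8.62), NO07G01200 (6.91), NO13G00230 (6.36) and NO18G00120 (5.58). At 12 h newGene_164 had 3.52, 3.60 and 13.4 FPKM, from 99, 39 and 517 counts, so replicate c set its mean. Its replicates a and b had like FPKM from unlike counts, so its FPKM and its ratio are uncertain. NO07G01200, with a domain of the sulfatase-modifying factor, had 61.6, 44.8 and 13.6 FPKM at 12 h, where replicate c was the low one, and 3.19, 3.36 and 3.04 FPKM at 0 h.

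In most classes of hints the share of these genes was close to that of other uncharacterised rows. No Pfam text was given for 75 of them (65.2%, against 65.2% of the 4596 other uncharacterised rows), no NR text for 28 (24.3% against 29.6%) and neither for 25 (21.7% against 26.1%). The closest NR protein was from N. gaditana for 71 (61.7% against 62.9%) and from another species for 16 (13.9% against 7.48%). Pfam text on sugars or glycosylation was present in 4 (3.48% against 1.24%), and text naming other enzymes in 10 (8.7% against 6.57%). Pfam text that names unknown function was present in 7 (6.09% against 4.2%). Shares were also higher for repeats (4 genes, 3.48% against 2.57%) and protein folding and turnover (3 genes, 2.61% against 1.37%). For kinases, phosphatases and signalling the share was 1.74% against 1.44%. Its 2 genes, NO03G04880 and NO19G00270, carry pleckstrin homology domains, and their Pfam text names no kinase or phosphatase. Shares were lower for nucleic acid binding (1 gene, 0.87% against 2.13%) and transport and membrane (1 gene, 0.87% against 2.07%). Other Pfam text was present in 8 (6.96% against 13.2%). The 4 with text on sugars include NO18G00100, NO18G00110 and NO18G00150, which carry nearby IDs. Gene Ontology text named a membrane in 15 (13% against 12.1%). Gene length, estimated from count and FPKM, had a median of 2113 bases, against 2112 bases in the 4006 other uncharacterised rows with an estimate. The shares are descriptions and were not tested.

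Of the 115 genes, 46 were sorted by their Pfam or NR text into 6 groups after their values had been seen, so no group was tested. Differences between times were tested on the counts, as log2 fold changes ± SE with n = 3 libraries per time, from edgeR's quasi-likelihood test over all 15 libraries with Benjamini-Hochberg adjustment over 9321 genes. A gene rose or fell where the adjusted p was under 0.05. At 48 h against 0 h, 111 of the 115 genes rose, so a full count there is no trait of a single group. All 115 genes passed the filter on low counts, which their 12 h level alone would have let them do. With only the 6 libraries of a comparison, 111 to 113 of them passed it. Comparisons with 12 h are left out because the rule fixed them, and for the other times the rule set only an upper bound. The comparisons of 6, 24 and 48 h with 0 h share the 0 h libraries, so they are not independent of each other. In bulk RNA, fewer cells with a transcript and less of it per cell cannot be told apart.

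Sugar transfer and the decoration of sugar chains were named for 6 genes, with 12 h means of 6.67 to 158 FPKM. Of these, 6 rose at 48 h against 0 h, when 26.3% of all tested genes rose, and 4 at 6 h, when 24.7% of all tested genes rose. At 24 h against 0 h 4 of the 6 rose, when 25.2% of all tested genes rose. The highest was NO06G04680, whose NR text names extl3, a glycosyltransferase in animals, although its Pfam text names a methyltransferase domain. It had 162, 161 and 150 FPKM at 12 h and 8.62, 8.16 and 7.91 FPKM at 0 h. Its counts at 48 h were higher than at 0 h by 2.59 ± 0.23 on the log2 scale (edgeR adjusted p = 3.5e-06). NO20G02360, with a glycosyltransferase family 2 domain, an enzyme type that adds sugars from nucleotide sugars, had 71.3, 74.7 and 74.2 FPKM at 12 h and 5.64, 5.81 and 4.95 FPKM at 0 h. It rose at 48 h against 0 h by 1.93 ± 0.15 (edgeR adjusted p = 1.4e-06). The others were NO18G00100 and NO18G00110, with a family 25 glycosyltransferase domain, NO18G00150, with a WbsX domain, and newGene_49, with a LicD domain, known from bacteria for adding phosphorylcholine to surface sugars. The call of NO18G00110 was lost at 6 h without 0 h replicate a or c or any 1 of the 6 h libraries (0.86 to 1.11) and at 48 h without 0 h replicate a or c or 48 h replicate a (0.91 to 1.26). NO18G00150 lost its call at 6 h without 0 h replicate c (0.57).

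Methyl transfer was named for 5 genes, with 12 h means of 5.59 to 58.7 FPKM, and 4 of them rose at 48 h against 0 h (26.3% of all tested genes). Against 0 h, 2 of the 5 rose at 6 h and 3 at 24 h (24.7% and 25.2% of all tested genes). NO03G01730, with a TylF domain known from antibiotic synthesis in bacteria, had 64.4, 57.6 and 54.0 FPKM at 12 h and 7.56, 8.85 and 6.92 FPKM at 0 h. NO29G00050 and NO18G00010 carry an FkbM methyltransferase domain. The gene that did not pass at 48 h was newGene_56. It had 0 counts in 1 library each of 0, 6 and 48 h, and 61 to 99 in the other libraries of those times. Its log2 fold change at 48 h against 0 h was 0.65 ± 1.52 (edgeR adjusted p = 0.76).

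To the secretory pathway and membranes 9 genes were assigned, with 12 h means of 26.0 to 180 FPKM. The texts of some, such as NO01G03830, NO28G00040 and NO07G01200, name neither, and their place here is an inference from the named family. Against 0 h, 3 of the 9 rose at 6 h, 8 at 24 h and 8 at 48 h, while 24.7%, 25.2% and 26.3% of all tested genes rose. The count at 6 h is close to that share of all genes. NO01G03830, whose NR text names mesoderm development candidate 2, a chaperone of the endoplasmic reticulum in animals, had 179, 210 and 150 FPKM at 12 h and 9.55, 9.01 and 6.92 FPKM at 0 h. It rose at 6 h against 0 h by 2.00 ± 0.24 (edgeR adjusted p = 2.2e-05). NO28G00040, a sulfhydryl oxidase of the Erv1 family, which forms disulfide bonds in proteins, had 67.0, 74.7 and 72.4 FPKM at 12 h and 4.25, 4.34 and 4.46 FPKM at 0 h. It did not pass the test at 6 h (0.29 ± 0.17) but rose at 24 h against 0 h by 1.54 ± 0.17 (edgeR adjusted p = 1.6e-05). NO28G01490, of the bestrophin chloride channels, showed the tightest 12 h libraries of the group, with 92.8, 92.0 and 94.8 FPKM, against 10.9, 10.4 and 10.01 FPKM at 0 h. The group also held NO01G03290, of the selenoprotein K family of the endoplasmic reticulum membrane, and NO02G02600, with the syntaxin 6 domain of vesicle fusion. NO02G04220 (a SNARE, a protein of vesicle fusion), NO06G03020 (SNARE-associated Golgi protein), NO01G01570 (tetraspanin) and NO07G01200 completed it. The Pfam text of NO07G01200 names a TAZ zinc finger beside the domain of the sulfatase-modifying factor. NO07G01200 passed in none of the 5 comparisons. The call of NO02G02600 at 6 h was lost without 0 h replicate a or b or 6 h replicate a (0.50 to 0.66), and that of NO02G04220 at 24 h without 0 h replicate c (1.02).

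Lipases and other hydrolases were named for 8 genes, with 12 h means of 12.9 to 325 FPKM, and 8 rose at 24 h and 8 at 48 h against 0 h, while 25.2% and 26.3% of all tested genes rose. At 6 h against 0 h 5 of the 8 rose (24.7% of all tested genes). The call of NO17G02860 at 24 h (0.68 ± 0.26, edgeR adjusted p = 0.049) was lost without any 1 of the 6 libraries compared (0.56 to 0.75), with DESeq2, with the replicate block and with no filter. The most abundant was NO06G04440, described as a lipolytic protein of the GDSL family, enzymes that cleave esters and often lipids. It had 22.1, 18.5 and 16.2 FPKM at 0 h, then 28.8, 27.2 and 27.2 at 6 h, then 279, 372 and 324 at 12 h, then 46.9, 52.3 and 57.2 at 24 h, and lastly 109, 52.2 and 94.5 at 48 h. Every library after 0 h lay above every 0 h library, yet the 6 h difference did not pass the test (0.36 ± 0.23, edgeR adjusted p = 0.23). At 48 h it had risen against 0 h by 2.12 ± 0.24 (edgeR adjusted p = 2.1e-05). The class 3 lipases, a family that cleaves glycerolipids, were NO05G00120, NO23G00820 and NO17G02860. NO05G00120 had 33.2, 34.0 and 33.3 FPKM at 12 h and 2.51, 2.25 and 2.34 FPKM at 0 h, and rose at 48 h against 0 h by 2.08 ± 0.14 (edgeR adjusted p = 5.3e-07). NO23G00820 rose already at 6 h against 0 h, by 1.60 ± 0.21 (edgeR adjusted p = 5e-05), whereas NO17G02860 did not pass at 6 h (0.07 ± 0.26). The remaining hydrolases were NO12G00970 (alpha/beta hydrolase), NO27G01060 (thioesterase), NO15G03320 (beta-lactamase domain) and NO22G01480 (a subtilase, a protein-cleaving enzyme).

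Binding and regulatory domains were named for 14 genes, with 12 h means of 8.53 to 160 FPKM, and 14 rose at 48 h against 0 h (26.3% of all tested genes). Against 0 h, 7 of the 14 rose at 6 h and 10 at 24 h (24.7% and 25.2% of all tested genes). The calls of NO01G01430, NO06G02550, NO16G02780 and NO24G01580 at 6 h were lost when single libraries of 0 or 6 h were left out. So was that of NO09G01350 at 24 h, without 0 h replicate a or c or 24 h replicate b. The call of NO10G03710 at 48 h, a gene with repeats of the RCC1 family, was lost without 0 h replicate c or 48 h replicate a (0.74 and 0.66). The highest was NO03G04880, with a pleckstrin homology domain, known for binding membrane lipids, and a kinesin-like NR text. It had 147, 178 and 156 FPKM at 12 h and 14.3, 11.5 and 12.7 FPKM at 0 h. NO24G00630, the only one with a Myb-like DNA-binding text, had 113, 103 and 91.3 FPKM at 12 h and 11.2, 10.02 and 11.3 FPKM at 0 h. It did not pass at 6 h (0.04 ± 0.17) and rose at 24 h against 0 h by 0.95 ± 0.17 (edgeR adjusted p = 0.00063). NO06G02090, with a WW domain for binding proline-rich stretches, had 61.8, 61.3 and 57.5 FPKM at 12 h and 4.16, 4.11 and 4.60 FPKM at 0 h. The group also held 2 F-box genes, NO24G01840 and NO01G01430, a domain known from ubiquitin ligases, and NO11G00070, with a forkhead-associated domain that binds phosphorylated proteins.

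The last group holds 4 genes known only by a domain of unknown function. Of the other 3 genes with such Pfam text, NO06G04680 and NO11G00070 are in the groups above and NO04G03190 is in none. NO24G00860 (DUF2059) had 64.6, 58.7 and 60.5 FPKM at 12 h and 6.83, 6.90 and 7.88 FPKM at 0 h. NO10G03240 (DUF1995) had 34.4, 41.9 and 37.8 FPKM at 12 h and 8.83, 8.48 and 6.84 FPKM at 0 h. At 4.72 times, it had the smallest ratio of 12 h to 0 h of all 115 genes. In this group 4 rose at 48 h against 0 h (26.3% of all tested genes), and the call of NO18G00120 was lost without 0 h replicate a or b or 48 h replicate c (0.59 to 0.73). Against 0 h, 2 of the 4 rose and 1 fell at 6 h (24.7% and 25.7% of all tested genes). At 24 h 3 rose (25.2%). The call of NO04G00200 at 6 h was lost without 0 h replicate b or c or 6 h replicate b or c. That of NO10G03240 at 24 h was lost without 0 h replicate b or c or 24 h replicate b or c (0.25 to 0.40).

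Several of these genes carry consecutive IDs at the start of the NO18G numbers. No positions were given, so ID order is the only measure of neighbourhood used, and this run was picked after its values had been seen. From NO18G00010 to NO18G00190 there are 19 rows, 17 of them uncharacterised, and 15 had their highest mean at 12 h. Only 12 of the 19 reached 5 FPKM at 12 h, and some of the 15 stayed low, such as NO18G00030 (0.39 FPKM at 12 h). Of 3273 other uncharacterised rows in the table with a mean of at least 5 FPKM at some time, 24.0% were highest at 12 h. That share leaves out all 115 genes and asks for 5 FPKM, so it is no like background for the 15. The rule took 11 of the 19, namely 9 of the 115 genes and the annotated rows NO18G00130 and NO18G00140. For these 11 the rule itself fixed the highest mean at 12 h. The 9 include the glycosyltransferase-domain genes NO18G00100, NO18G00110 and NO18G00150, the FkbM gene NO18G00010 and NO18G00120, with a domain of unknown function (HtrL_YibB).

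NO18G00100 had 33.0, 36.0 and 35.8 FPKM at 12 h and 3.33, 4.32 and 3.80 FPKM at 0 h. NO18G00180, with neither text, had 25.8, 29.0 and 29.8 FPKM at 12 h and 4.10, 3.04 and 2.79 FPKM at 0 h. NO18G00120 had 17.3, 22.7 and 21.7 FPKM at 12 h and 1.78, 1.90 and 2.51 FPKM at 0 h. Together with NO18G00190 (20.8 FPKM at 12 h) they were the 4 highest of the run at 12 h. Whether the authors' counting used strand is not given in the sources used here, so reads of neighbours that overlap cannot be told apart.

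**Figure D4:**
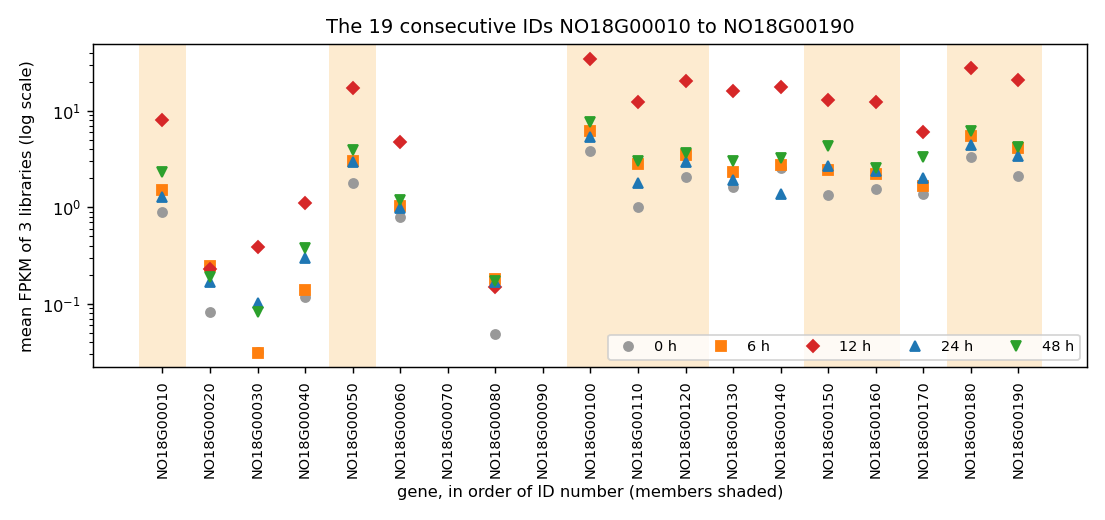
Mean FPKM (log axis) at each time for the 19 consecutive IDs NO18G00010 to NO18G00190. Shaded rows belong to the 115 genes and rows listed at 0 have no marker. The 12 h marker lies highest in 15 of the 19 rows, 11 of which passed the rule that fixes this.

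Over the whole table, 17 of the 108 genes with an NO number (15.7%) had a row that passed the 12 h rule directly before or after them, against 302 of 10208 other numbered rows (2.96%). Of the 17, 7 were in the NO18G run. Outside it, the share was 10 of 99 (10.1%), among them NO04G00190 with NO04G00200, NO19G00090 with NO19G00100, and NO20G01880 with NO20G01890.

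At 6 h many of these genes were already above 0 h. Of the 115, 64 rose and 1 fell, while 24.7% of all tested genes rose and 25.7% fell. The median log2 fold change was 0.72 in these genes and -0.03 over all tested genes, and 38 rose at least 2-fold. Every 6 h library lay above every 0 h library in 91 of them, and in 39.0% of all tested genes (FPKM). The largest rise was that of NO21G02270 (2.89 ± 0.27, edgeR adjusted p = 3.1e-06). NO22G01940, with neither text, rose by 2.88 ± 0.63 (edgeR adjusted p = 0.0024), with 36, 20 and 25 counts at 6 h and 0, 6 and 5 counts at 0 h. NO02G05930, a hypothetical protein shared with N. gaditana, rose by 2.40 ± 0.16 (edgeR adjusted p = 2e-07). It had 47.6, 52.7 and 39.2 FPKM at 6 h and 7.01, 7.93 and 8.10 FPKM at 0 h.

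The gene that fell at 6 h was NO10G03240, by -0.35 ± 0.13 (edgeR adjusted p = 0.044), and this call was lost in 10 of 13 alternatives, 5 of which left out 1 library (0 h a or b, 6 h a, b or c, with values of -0.40 to -0.29). It had 6.79, 7.25 and 7.51 FPKM at 6 h and 8.83, 8.48 and 6.84 FPKM at 0 h, which overlap. NO27G01730 did not pass at 6 h against 0 h, with 0.00 ± 0.20 (edgeR adjusted p = 0.99).

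At 24 h, 93 of the 115 genes were higher than at 0 h and 1 was lower, against 25.2% and 20.8% of all tested genes. The median log2 fold change was 1.10, against 0.03 over all tested genes, and 68 rose at least 2-fold. All 24 h libraries lay above all 0 h libraries in 101 genes, and in 38.6% of all tested genes. NO22G01940 rose most, by 4.27 ± 0.65 (edgeR adjusted p = 0.00021), with 52, 74 and 92 counts at 24 h against 0, 6 and 5 at 0 h. Next were NO21G02270 (3.69 ± 0.28, edgeR adjusted p = 1.1e-06) and NO16G01520, with a PT repeat like NO29G01450 (2.53 ± 0.15, edgeR adjusted p = 2.8e-07). NO16G01520 had 11.5, 14.8 and 15.4 FPKM at 24 h and 2.35, 2.07 and 2.31 FPKM at 0 h.

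NO06G03410, a hypothetical protein, was the gene that fell at 24 h against 0 h, by -1.29 ± 0.39 (edgeR adjusted p = 0.018). It had 0.402, 0.411 and 0.515 FPKM at 24 h and 1.14, 0.884 and 0.960 FPKM at 0 h, with no overlap. Without 0 h replicate a, or without 24 h replicate a or b, the call was lost (log2 fold change -1.17, -1.26 and -1.24).

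At 48 h, 111 of the 115 genes were higher than at 0 h and 0 were lower, against 26.3% and 23.0% of all tested genes. With only the 6 libraries compared, 102 of the 113 genes that passed the filter on low counts rose. The number lower was also 0 at an unadjusted p under 0.05 in edgeR and 0 with DESeq2. The median log2 fold change was 1.68, against 0.01 over all tested genes, and 96 rose at least 2-fold. The 4 that did not pass were NO07G01200, NO06G03410, newGene_164 and newGene_56. All 48 h libraries lay above all 0 h libraries in 109 genes, and in 34.4% of all tested genes. NO21G02270 rose by 3.49 ± 0.28 (edgeR adjusted p = 1.7e-06) and NO22G01940 by 3.21 ± 0.64 (edgeR adjusted p = 0.0013).

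The largest value at 48 h against 0 h was that of NO05G05180 (3.84 ± 1.22, edgeR adjusted p = 0.02), and it rested on 1 library. Its counts were 61, 2 and 2 at 48 h and 1, 2 and 2 at 0 h. It passed the filter on low counts only through its 12 h counts (135, 139 and 99), by which it was also chosen. Without 48 h replicate a the log2 fold change was 0.29 and the call was lost, as it was without any 1 of the 0 h libraries (3.69 to 3.998). NO29G01450 rose by 2.06 ± 0.58 (edgeR adjusted p = 0.011), but without 48 h replicate a the value was 1.23 and did not pass. The call of NO07G04410 was lost without any 1 of the 0 h libraries and without 48 h replicate a or b (1.02 to 2.19).

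**Figure D5:**
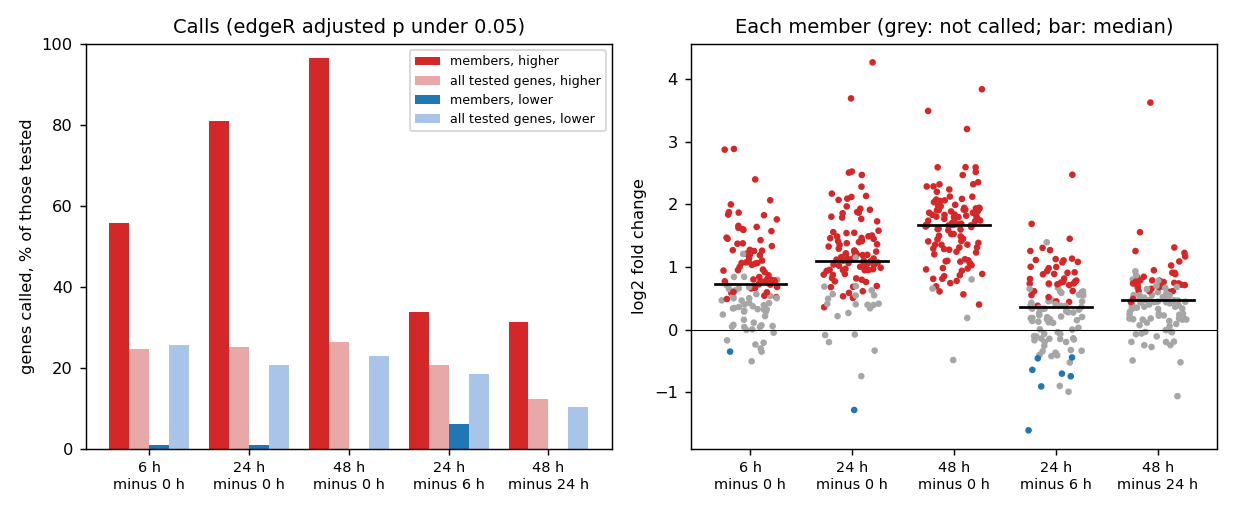
Left, the percentage of the 115 genes (members) and of all 9321 tested genes that rose or fell in each of 5 comparisons (edgeR adjusted p under 0.05). Right, the log2 fold change of each gene, with the median as a bar and genes that did not pass in grey; the medians are 0.72, 1.10 and 1.68 at 6, 24 and 48 h against 0 h.

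Between 6 and 24 h more of the 115 genes rose than fell. At 24 h against 6 h 39 rose (33.9%, against 20.6% of all tested genes) and 7 fell (6.09%, against 18.4%). The median log2 fold change was 0.36 (0.02 over all). The number that rose was 25 without 6 h replicate b and 25 without 24 h replicate c. The number that fell was 3 without 6 h replicate b and 3 without 24 h replicate a. NO07G04410 had the largest value (2.47 ± 0.74, edgeR adjusted p = 0.019), and lost its call without 6 h replicate b or c or without 24 h replicate b (2.12 to 2.37). NO09G03590 rose by 1.69 ± 0.25 and NO23G01400 by 1.45 ± 0.21 (edgeR adjusted p = 0.00022 for each). NO23G01400 had 24.6, 43.8 and 46.4 FPKM at 24 h and 12.3, 11.7 and 13.5 FPKM at 6 h.

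The genes that fell at 24 h against 6 h were NO06G03410, NO01G00090, NO01G05160, NO01G00230, newGene_17, NO21G02310 and NO20G01340. NO06G03410 fell by -1.61 ± 0.40 (edgeR adjusted p = 0.0065). The abundant NO01G05160 fell by -0.75 ± 0.15 (edgeR adjusted p = 0.0016), and its 24 h libraries lay below its 6 h libraries. NO01G00090 fell by -0.91 ± 0.31 (edgeR adjusted p = 0.038), a call lost without 6 h replicate b or c or without any 1 of the 24 h libraries (-0.97 to -0.75). The calls of NO01G00230, NO20G01340 and newGene_17 were also lost when single libraries of 6 or 24 h were left out.

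At 48 h against 24 h, 36 of the 115 genes rose and 0 fell, against 12.3% and 10.4% of all tested genes, with a median log2 fold change of 0.47 (-0.01 over all). The number that fell was also 0 at an unadjusted p under 0.05 in edgeR, and 1 with DESeq2. This count turned on single libraries. It was 64 without 48 h replicate b, 13 without 48 h replicate a and 18 without 48 h replicate c. It was 14 without 24 h replicate a, 16 without 24 h replicate b and 8 when only the 6 compared libraries were used. NO01G00090 rose by 1.56 ± 0.31 (edgeR adjusted p = 0.0044), with 2.85, 2.09 and 2.14 FPKM at 48 h and 0.803, 0.626 and 0.825 FPKM at 24 h. NO01G00230 rose by 1.31 ± 0.20 (edgeR adjusted p = 0.00086), with 3.26, 3.02 and 2.67 FPKM at 48 h and 1.39, 1.04 and 1.11 FPKM at 24 h. Both have neither Pfam nor NR text, both had their calls as lower at 24 h against 6 h lost without single libraries, and their 48 h libraries did not overlap those of 24 h. NO05G05180 again had the largest value, 3.63 ± 1.19 (edgeR adjusted p = 0.047), and 0.08 without 48 h replicate a.

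The 25 genes with neither text had 12 h means of 6.84 to 1097 FPKM, with a median of 25.1 FPKM, against a median of 36.8 FPKM in the other genes. Of the 25, 13 rose at 6 h, 19 at 24 h and 24 at 48 h, each against 0 h, while 24.7%, 25.2% and 26.3% of all tested genes rose. Among the newly assembled genes, newGene_17 (34.0 FPKM at 12 h), newGene_194 (21.2 FPKM at 12 h) and newGene_164 (6.84 FPKM at 12 h) had neither text. At 48 h newGene_194 had risen against 0 h by 1.77 ± 0.27 (edgeR adjusted p = 0.00018), with 9.07, 4.46 and 5.84 FPKM at 48 h and 1.99, 1.96 and 1.58 FPKM at 0 h.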

How the data were processed

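Total RNA of 15 libraries was sequenced, and the deposited table gives expected counts and FPKM for each, per the file headers. The deposited expected counts are whole numbers without scaling. The FPKM values were computed by the authors from length and depth. HISAT2 is named without a version in the submitters' processing notes, and the counter, genome build and annotation were not given in the sources used here. All 115 genes, the groups of texts and the tests were chosen with earlier results of these data known.

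Levels are FPKM and tests use counts (edgeR 4.0.16 in R 4.3.3, filterByExpr by time, TMM scaling, quasi-likelihood F-test over 15 libraries, Benjamini-Hochberg adjustment over 9321 of 10434 rows, two-sided). The SE was taken as the absolute log2 fold change over the root of F. The 2 scales differ: the median log2 ratio of FPKM means exceeded the edgeR value by 0.193 at 6 h against 0 h and by 0.058 at 48 h against 0 h. The length implied by count and FPKM varied between libraries with a median coefficient of variation of 1.96% (up to 16.3%) over 112 genes. These had at least 100 counts in 2 or more libraries, which leaves out newGene_164. Genes were named by level at 12 h, by Pfam text and level, by ratio to the next time, by the largest changes per comparison, and if newly assembled. The gene groups and the NO18G run were added after values were seen.

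The alternatives were other normalizations, DESeq2 1.42.0, filters, the letter as a block, the 6 libraries compared, and each library left out. Same-letter libraries did not deviate together (correlations of -0.088 to 0.077 over 30 pairs), so the letter was no block in the tests. No libraries were copies (chi-square per degree of freedom 55.9 to 128). The steps were tested on simulated data. Python 3.11.15, pandas 2.3.3 and matplotlib 3.10.9 were used.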

Additional observations from a re-analysis of the deposited data

How the results depend on the processing

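The number of genes was 258 with a ratio of 2, 43 with a ratio of 4, 138 and 104 with a floor of 1 and 10 FPKM, 123 without the demand for no overlap, and 133 on TMM-scaled CPM (114 of the 115 shared). Leaving out 1 library gave 85 (48 h b) to 142 (48 h a). Genes that rose numbered 54 to 60 (64 with all libraries) at 6 h against 0 h when 1 library was left out, 81 to 91 (93) at 24 h against 0 h, 103 to 110 (111) at 48 h against 0 h, 25 to 39 (39) at 24 h against 6 h and 13 to 64 (36) at 48 h against 24 h. With the letter as a replicate block they were 62, 91, 109, 33 and 27 in these 5 comparisons, and with DESeq2 71, 93, 110, 41 and 44. With only the 6 compared libraries, 66 of 111, 87 of 112, 102 of 113, 36 of 112 and 8 of 113 tested genes rose, in the same order. The cause was not tested for any of these shifts. For the named genes, the grouped genes and those of the NO18G run, 222 calls were recomputed under the alternatives, giving 2880 values. Of these values 2612 kept direction and call, 268 kept direction without the call and 0 changed direction. Counted by call, 158 of the 222 held under every alternative. DESeq2 gave no adjusted p for NO05G05180. Genes with few counts outside 12 h, such as NO07G04410 and NO22G01940, have imprecise folds.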
